A study of Homo sapiens with 4 samples.

Results

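The genes described here are 41 genes of the hypoxia-inducible factor (HIF) system and of glycolysis, measured in the established UM-UC-3 line of human bladder cancer cells. They were taken by name: every probe set that the platform annotation gives to exactly 1 gene was kept where that gene was on the list, and a gene was read from its probe set with the highest mean over the 4 arrays. This found 40 of the 41 genes among 19775 named on the array; SLC16A3, a lactate exporter gene, had no probe set under this rule. Of the 40, 38 passed the filter on low values and were tested, as were 12123 genes in all. The others, EGLN3 and SLC2A3, had means of 4.59 and 4.54, just under the filter level of 4.64.

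The tested cells were stably transfected with GFP fused to RhoGDI2, the product of ARHGDIB, which the series title calls a metastasis suppressor. The controls were UM-UC-3 cells stably transfected with GFP alone, cotransfected per the labels with a puromycin resistance plasmid, pBABE PURO. Both lines were sorted by fluorescence for the introduced protein and harvested in log phase growth, with no treatment and no oxygen level given in the labels. Each line has 2 arrays, from preparations A and B made at different times, and the labels pair the lines within a preparation. The series asks which genes RhoGDI2 regulates. The labels call A and B biological replicates. The sources used here do not say whether a line is 1 clone or a mixture, or whether its preparations share a transfection. If they share one, p-values measure only how far the difference between the lines varied from preparation to preparation. Differences that arose when a line was made and differences due to the introduced gene then cannot be told apart. These are bulk samples, in which fewer cells expressing a gene and less of its RNA per cell cannot be told apart either.

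Values are log2 expression made by the authors with RMA, and each difference is GFP-RhoGDI2 minus GFP, averaged over the 2 preparations. A gene is called higher or lower where the limma fit with preparation as a block gave a Benjamini-Hochberg adjusted p under 0.05 over all 27307 probe sets tested. ARHGDIB read 11.94 and 11.58 in GFP-RhoGDI2 cells A and B, against 6.51 and 6.27 in GFP cells. Its other probe sets differed far less, by 0.94 and by -0.02, and on the least bright the lines overlap. Arrays of the same line correlated at 0.9958 to 0.9964 over probe sets and arrays of different lines at 0.9912 to 0.9923. Of the 10 urothelial markers measured (uroplakins, KRT5, KRT7, KRT20 and transcription factors), 7 had a mean under the filter level of 4.64, as did the epithelial genes EPCAM and CDH1. The epithelial keratins KRT8 and KRT18 were measured and called lower in GFP-RhoGDI2 cells, by 1.23 and 0.59. Of the other 3 urothelial markers, KRT7 and GATA3 differed by -0.15 and -0.20, uncalled. PPARG read 5.85 and 5.77 in GFP-RhoGDI2 cells, against 4.46 and 4.61 in GFP cells, which lie under the filter level. All 4 mesenchymal markers had positive differences, with a median of 0.26: CDH2 was called higher, by 0.68, while FN1, ZEB1 and VIM differed by 0.34, 0.19 and 0.18, uncalled. Whether these marker differences had a part in the results below was not tested. Of 5 leukocyte, endothelial and red cell markers, 3 lay under the filter level and 0 of the other 2 were called.

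HIF is a transcription factor made of an oxygen-regulated alpha subunit, HIF-1alpha (HIF1A) or HIF-2alpha (EPAS1), and the constant partner ARNT. When oxygen is plentiful, prolyl hydroxylases encoded by the EGLN genes mark the alpha subunits, and the VHL protein then directs their destruction, so that HIF activity is set largely at the protein level. In low oxygen the alpha subunits persist, pair with ARNT and bind the letters ACGTG or GCGTG near genes for glucose uptake, glycolysis, mitochondrial turnover and collagen modification, and near genes for their own hydroxylases. In tumours, genes of this programme are also switched on without low oxygen, by growth signalling and by loss of VHL.

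The promoter letters of the 4 called members with the largest rise are shown because HIF acts through them, limited to members with an entry in the promoter table and a window outside the annotated gene. The 250 bases upstream of the RefSeq gene start (GRCh38.p14) are given 5′ to 3′ on the gene's own strand. Capitals mark ACGTG or GCGTG on either strand; their reverse complements are CACGT and CACGC, and an ACGTG inside CACGTG is matched on both strands. The windows are chr10:72273674-72273923 for DDIT4 (plus strand), chr12:26125038-26125287 for BHLHE41 (minus strand), chr2:46297157-46297406 for EPAS1 (plus strand) and chr10:110207355-110207604 for MXI1 (plus strand).
DDIT4: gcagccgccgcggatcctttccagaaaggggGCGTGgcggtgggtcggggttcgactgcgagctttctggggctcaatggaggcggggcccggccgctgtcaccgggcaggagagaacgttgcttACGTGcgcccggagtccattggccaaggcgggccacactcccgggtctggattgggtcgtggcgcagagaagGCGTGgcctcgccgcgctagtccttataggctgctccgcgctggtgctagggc
BHLHE41: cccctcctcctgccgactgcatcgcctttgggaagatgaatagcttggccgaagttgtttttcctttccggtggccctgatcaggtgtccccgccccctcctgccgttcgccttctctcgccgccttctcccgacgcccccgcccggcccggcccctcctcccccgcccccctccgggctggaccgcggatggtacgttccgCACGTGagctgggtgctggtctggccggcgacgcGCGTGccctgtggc
EPAS1: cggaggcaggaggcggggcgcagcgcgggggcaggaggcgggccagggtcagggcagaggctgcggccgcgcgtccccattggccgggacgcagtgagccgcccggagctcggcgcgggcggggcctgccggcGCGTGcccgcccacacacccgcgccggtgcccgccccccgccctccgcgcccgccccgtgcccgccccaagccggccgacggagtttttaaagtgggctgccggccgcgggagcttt
MXI1: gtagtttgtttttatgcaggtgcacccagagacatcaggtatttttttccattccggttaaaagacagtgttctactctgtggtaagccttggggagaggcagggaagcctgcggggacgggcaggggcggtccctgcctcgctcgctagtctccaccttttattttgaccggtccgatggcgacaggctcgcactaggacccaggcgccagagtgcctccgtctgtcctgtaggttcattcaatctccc

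DDIT4 held 3 matches, BHLHE41 held 3, EPAS1 held 1 and MXI1 held 0. In BHLHE41 a pair of the matches overlap in CACGTG, the E-box, which the BHLHE41 protein itself can bind. Over the 36 members with a promoter in the RefSeq table, 24 (66.7%) held at least 1 match, against 57.2% of 9834 promoters of tested genes and 43.1% of all 27305 promoters. ACGTG alone was in 16 members (44.4%) and in 23.4% of the promoters of tested genes. It was in 5 of 11 members called higher and in 11 of 23 members tested but not called. A match is only a run of letters, and the members were listed for their known link to HIF.

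Across the 38 tested members, 13 were called higher in GFP-RhoGDI2 cells, where 4.83% of all tested genes were called higher, and 1 was called lower, where 3.35% of all tested genes were. The median difference of the tested members was 0.27 (0.29 in preparation A and 0.25 in preparation B), against -0.01 over all tested genes. In the main fit, calls lay mostly in HIF targets outside the glycolytic chain: 8 of 13 other HIF targets and 2 of 3 glycolysis regulators were called higher. Of 16 glycolytic enzymes, 2 were called higher and 1 lower. With an intensity trend, where the assumed spread depends on level, PGK1, LDHA, PGAM1, PFKP, ENO1 and TPI1 were also called higher. In that setting 11.6% of all tested genes were called higher. The median difference was 0.13 for the enzymes and 0.43 for the other tested members. Both GFP-RhoGDI2 arrays lay above both GFP arrays for 29 of the 38 tested members, and below them for 2. Separation in either direction is common here, since 25.6% of all tested genes were above and 29.0% below in the same way. Of the 24 members that were not called, 10 had an unadjusted p under 0.05, 9 of them with a positive difference. With called genes included, 24 of the 38 tested members had an unadjusted limma p under 0.05, as did 3290 of all 12123 tested genes. Because each line has only 2 arrays, the SEs rest on 1 residual degree of freedom and 4.71 prior degrees of freedom pooled over probe sets. None of the differences between role groups was tested.

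**Figure D1:**
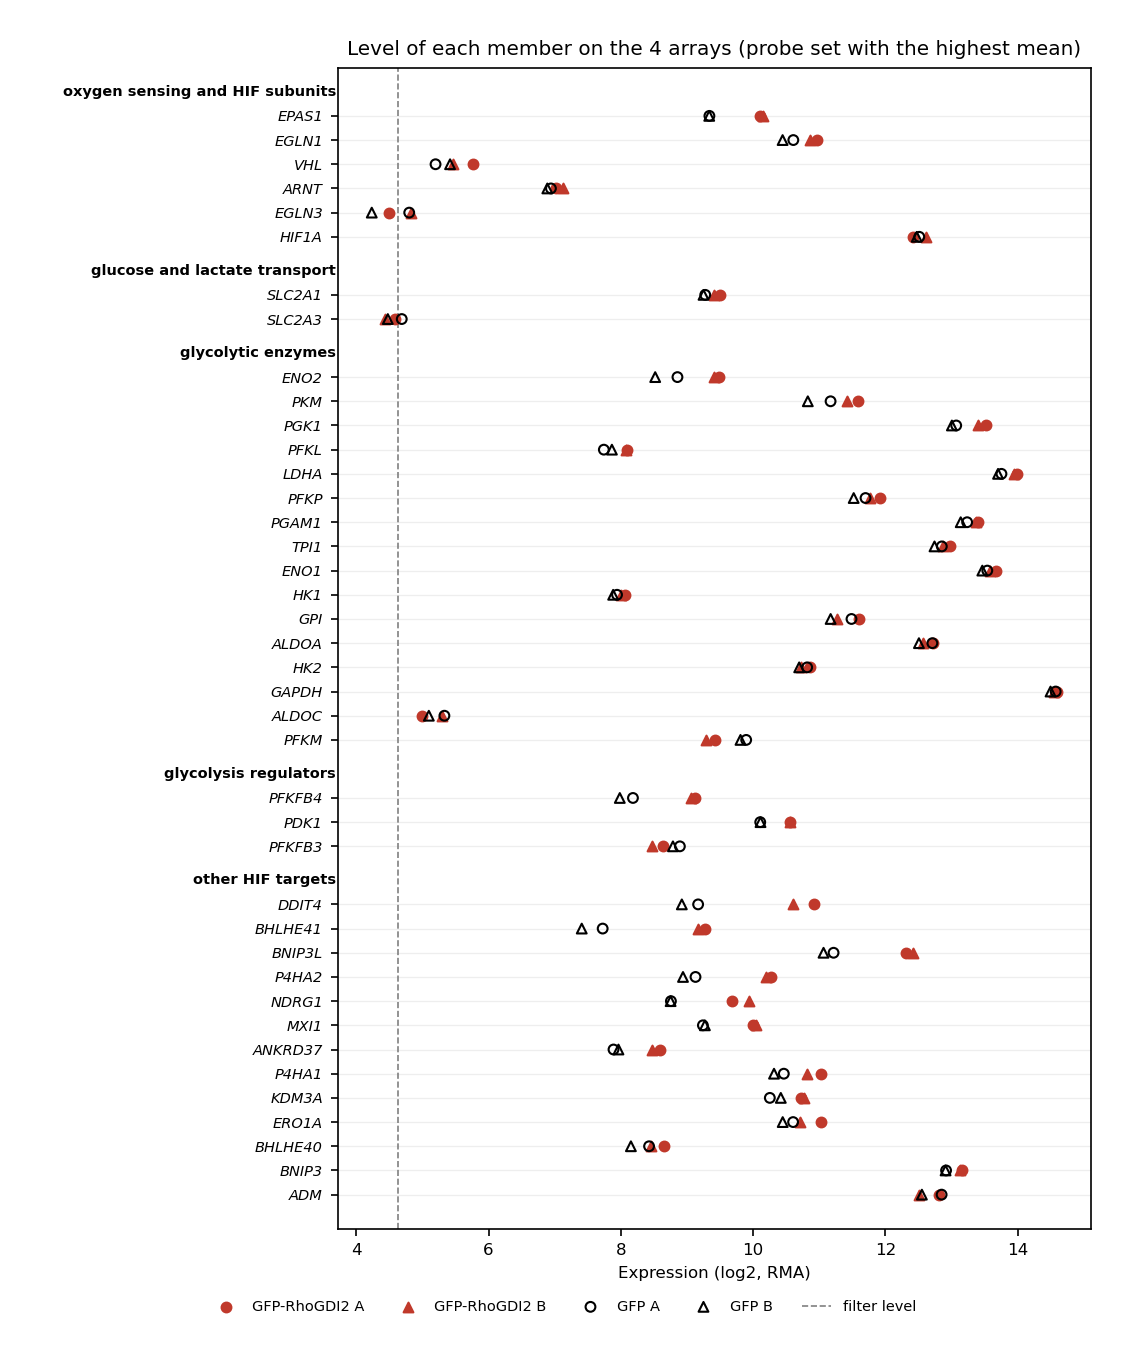
Level of each member (log2 RMA, horizontal axis) on the GFP-RhoGDI2 arrays (filled red) and the GFP arrays (open black), with circles for preparation A and triangles for preparation B, in role groups; the dashed line is the filter level of 4.64. DDIT4, BHLHE41, BNIP3L, P4HA2, NDRG1 and PFKFB4 show the widest gaps between the lines, while the lines overlap for HIF1A, ADM, HK2 and GAPDH.

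Among the oxygen sensing genes, the alpha subunit gene EPAS1 rose and the others did not pass the test. EPAS1, which encodes HIF-2alpha, read 10.11 and 10.16 in GFP-RhoGDI2 cells A and B, against 9.34 and 9.34 in GFP cells. The lines do not overlap and each is tight, and the difference was 0.79 (SE 0.092, adjusted p = 0.0105), or 1.73-fold. HIF1A, the other alpha subunit gene, read 12.42 and 12.62 in GFP-RhoGDI2 cells, against 12.51 and 12.47 in GFP cells. Its lines overlap, its difference was 0.03 with a 95% interval from -0.23 to 0.28, and its sign differed between preparations (-0.09 in A and 0.14 in B). EGLN1, the main HIF prolyl hydroxylase gene, read 10.96 and 10.87 in GFP-RhoGDI2 cells, against 10.61 and 10.45 in GFP cells. That difference of 0.39 missed the threshold (adjusted p = 0.0652), although the lines did not overlap. Its other tested probe sets differed by 0.41 and 0.48, also uncalled.

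The partner subunit gene ARNT differed by 0.16 (adjusted p = 0.350) and its other tested probe sets by -0.01 to 0.40, with none called. VHL, the gene of the ubiquitin ligase subunit that recognises hydroxylated HIF, read 5.77 and 5.47 in GFP-RhoGDI2 cells, against 5.20 and 5.42 in GFP cells, a difference of 0.31 (adjusted p = 0.233) that came mainly from preparation A. EGLN3, a hydroxylase gene that is itself a HIF target, was not tested: it read 4.50 and 4.82 in GFP-RhoGDI2 cells, against 4.80 and 4.23 in GFP cells. Those values straddle the filter level and the lines overlap.

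Of the 13 other HIF targets, 8 were called higher, by 0.53 to 1.72. DDIT4, encoding an inhibitor of mTOR signalling that is induced by low oxygen and by other stresses, read 10.93 and 10.61 in GFP-RhoGDI2 cells A and B, against 9.17 and 8.92 in GFP cells. Preparation A was the higher one in both lines, and the difference was nearly the same within each (1.76 in A and 1.68 in B). DDIT4 rose 3.30-fold, a difference of 1.72 (SE 0.093, adjusted p = 0.000882), which placed it 60th from the top of 12123 tested genes. Its promoter window, shown above, holds 3 of the searched motifs. Windows with at least 1 match were found for 7 of 11 members called higher and for 17 of 23 tested but not called.

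BHLHE41, encoding a repressor that acts in the circadian clock, read 9.27 and 9.16 in GFP-RhoGDI2 cells, against 7.72 and 7.41 in GFP cells. It rose 3.14-fold (1.65, SE 0.102, adjusted p = 0.00136). On its other tested probe sets the GFP values of 4.05 to 4.32 lie under the filter level, so these passed the filter only through the GFP-RhoGDI2 arrays, at 5.23 to 5.93, and their differences of 1.74 and 1.10 add no support. BHLHE40, its close relative, read 8.65 and 8.46 in GFP-RhoGDI2 cells, against 8.43 and 8.15 in GFP cells, a difference of 0.27 that was not called (adjusted p = 0.143). A less bright BHLHE40 probe set rose by 0.66 (adjusted p = 0.0304), so the probe sets of this gene differ in their call.

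BNIP3L and BNIP3 encode related proteins of the mitochondrial outer membrane that direct the removal of mitochondria by autophagy. BNIP3L read 12.31 and 12.42 in GFP-RhoGDI2 cells, against 11.22 and 11.06 in GFP cells. It rose 2.33-fold (1.22, SE 0.107, adjusted p = 0.00429), and its other probe set rose by 1.29 (adjusted p = 0.00221). BNIP3 read 13.16 and 13.13 in GFP-RhoGDI2 cells, against 12.92 and 12.91 in GFP cells. The lines of BNIP3 do not overlap, but the difference of 0.23 was not called (adjusted p = 0.180), nor was that of 0.46 on its other probe set (adjusted p = 0.0580). BNIP3L and BNIP3 were not tested against each other.

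NDRG1, a stress-responsive gene that is widely used as a readout of low oxygen, read 9.69 and 9.93 in GFP-RhoGDI2 cells, against 8.76 and 8.75 in GFP cells. It rose 2.08-fold (1.06, SE 0.106, adjusted p = 0.00675), somewhat more in preparation B (1.18) than in A (0.93). MXI1, encoding an antagonist of MYC, read 10.00 and 10.04 in GFP-RhoGDI2 cells, against 9.24 and 9.27 in GFP cells. It rose 1.70-fold (adjusted p = 0.0117), with 0.76 and 0.77 in preparations A and B. ANKRD37, a small ankyrin repeat gene, read 8.59 and 8.47 in GFP-RhoGDI2 cells, against 7.89 and 7.96 in GFP cells, and rose 1.52-fold (adjusted p = 0.0267).

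Genes for collagen prolyl hydroxylation rose as well. P4HA2 and P4HA1 encode alpha subunits of the collagen prolyl 4-hydroxylase, which stabilises the collagen triple helix and is separate from the HIF hydroxylases. P4HA2 read 10.27 and 10.19 in GFP-RhoGDI2 cells, against 9.13 and 8.94 in GFP cells. It rose 2.29-fold (1.20, SE 0.095, adjusted p = 0.00317), and a less bright probe set rose by 0.79 (adjusted p = 0.0119). P4HA1 read 11.03 and 10.82 in GFP-RhoGDI2 cells, against 10.46 and 10.32 in GFP cells, and rose 1.45-fold (adjusted p = 0.0309). Without the block P4HA1 was no longer called (adjusted p = 0.0607).

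The other HIF targets were not called. KDM3A, a histone demethylase gene, differed by 0.41 (adjusted p = 0.0606), with 10.72 and 10.77 in GFP-RhoGDI2 cells, against 10.25 and 10.42 in GFP cells. ERO1A, encoding the oxidase that drives disulphide bond formation in the endoplasmic reticulum, differed by 0.34 (adjusted p = 0.0971), and its other probe sets by 0.33 and 0.29. ADM, which encodes the vasodilator peptide adrenomedullin and is a much used HIF target, read 12.81 and 12.51 in GFP-RhoGDI2 cells, against 12.85 and 12.55 in GFP cells. The ADM difference was -0.04, with a 95% interval from -0.27 to 0.19, while its preparations differed by 0.31 in GFP-RhoGDI2 cells and 0.30 in GFP cells. ADM differed more between preparations than between lines.

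**Figure D2:**
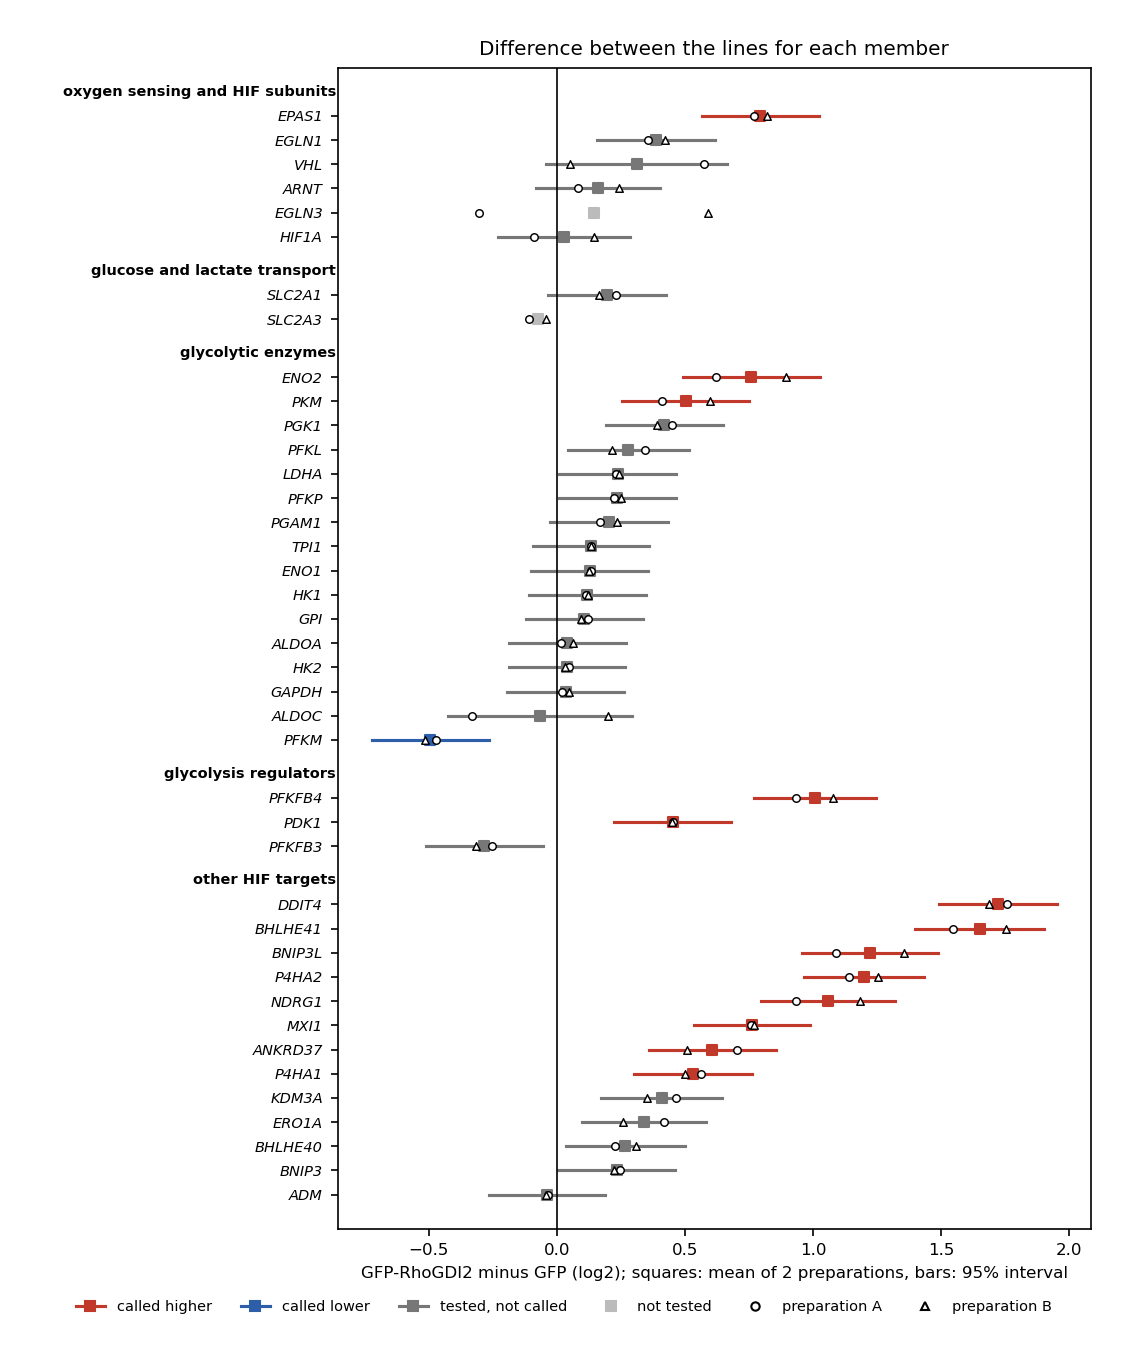
Difference of each member, GFP-RhoGDI2 minus GFP (log2, horizontal axis), as the mean of 2 preparations (squares) with its 95% interval (bars) and the values of preparation A (circles) and B (triangles); red is called higher, blue called lower, dark grey not called and light grey not tested. The 8 called HIF targets reach from 0.53 for P4HA1 to 1.72 for DDIT4, whereas most glycolytic enzymes lie between 0 and 0.5 and PFKM lies at -0.49.

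Of the regulators that steer glycolytic flux, PFKFB4 and PDK1 rose. PFKFB4 belongs to the bifunctional enzymes that make and remove fructose 2,6-bisphosphate, the strongest activator of phosphofructokinase. It read 9.12 and 9.06 in GFP-RhoGDI2 cells, against 8.18 and 7.98 in GFP cells, and rose 2.01-fold (1.01, SE 0.097, adjusted p = 0.00591). Its less bright probe set differed by 0.47 (adjusted p = 0.0742). PFKFB3, the family member with the highest kinase activity, read 8.64 and 8.47 in GFP-RhoGDI2 cells, against 8.89 and 8.79 in GFP cells. Its difference of -0.28 runs the other way in both preparations and was not called (adjusted p = 0.125).

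PDK1 encodes a kinase that switches off pyruvate dehydrogenase and so keeps pyruvate out of the mitochondrion. It read 10.56 and 10.56 in GFP-RhoGDI2 cells, against 10.11 and 10.11 in GFP cells, and rose 1.37-fold (0.45, adjusted p = 0.0446). Its probe sets disagree: another differed by 0.56 (adjusted p = 0.0709) and the least bright by -0.30 (adjusted p = 0.153). The PDK1 call was lost without the block (adjusted p = 0.0572) and with the mean of its probe sets (0.24, adjusted p = 0.130).

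Of the transporters, SLC2A1, the gene of the glucose carrier GLUT1, read 9.50 and 9.41 in GFP-RhoGDI2 cells, against 9.28 and 9.25 in GFP cells. That difference of 0.20 was not called (adjusted p = 0.246). SLC2A3, the gene of GLUT3, was not tested; it read 4.58 and 4.43 in GFP-RhoGDI2 cells, against 4.69 and 4.48 in GFP cells, with overlapping lines.

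The 16 glycolytic enzymes, all tested, had a median difference of 0.13, from -0.49 for PFKM to 0.76 for ENO2, with 14 positive and 2 negative. ENO2, the enolase isozyme first known from neurons, read 9.48 and 9.41 in GFP-RhoGDI2 cells, against 8.86 and 8.52 in GFP cells, and rose 1.69-fold (SE 0.108, adjusted p = 0.0184). ENO1, the ubiquitous enolase gene, differed by 0.13 (adjusted p = 0.429). PKM, the gene of pyruvate kinase in the last step, read 11.58 and 11.42 in GFP-RhoGDI2 cells, against 11.17 and 10.83 in GFP cells, and rose 1.42-fold (adjusted p = 0.0422). Its less bright probe set differed by -0.03 (adjusted p = 0.892). The PKM call was lost without the block (adjusted p = 0.105), on renormalization (adjusted p = 0.0538) and with the mean of its probe sets, where the difference was 0.24 (adjusted p = 0.102).

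PFKM was the member that fell. It encodes the muscle-type subunit of phosphofructokinase and read 9.42 and 9.29 in GFP-RhoGDI2 cells, against 9.89 and 9.81 in GFP cells. The lines do not overlap and PFKM fell 1.41-fold (-0.49, SE 0.092, adjusted p = 0.0362), with -0.47 in preparation A and -0.52 in B; the call was lost without the block (adjusted p = 0.0550). The platelet-type PFKP and liver-type PFKL subunit genes had positive differences of 0.24 and 0.28 that were not called (adjusted p = 0.176 and 0.138). PFKM has 1 probe set, of a class that can match several transcripts. The same holds for DDIT4 and NDRG1, which were called higher, and the probe sets that represent P4HA1 and BHLHE41 are also of this class.

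PGK1, which makes the first ATP of glycolysis, depended on the probe set. The probe set that represents it read 13.52 and 13.40 in GFP-RhoGDI2 cells, against 13.07 and 13.01 in GFP cells, a difference of 0.42 that missed the threshold (adjusted p = 0.0539). The other 5 PGK1 probe sets were all called higher, by 0.49 to 1.54. The largest of these read 8.42 and 8.38 in GFP-RhoGDI2 cells, against 6.64 and 7.09 in GFP cells (adjusted p = 0.00452). PGK1 has processed copies in the genome, so probe sets may share signal with them.

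Genes of the other steps had small differences. LDHA, whose product turns pyruvate into lactate, read 13.99 and 13.95 in GFP-RhoGDI2 cells, against 13.75 and 13.70 in GFP cells, a difference of 0.24 (adjusted p = 0.174). GAPDH read 14.59 and 14.55 in GFP-RhoGDI2 cells, against 14.57 and 14.50 in GFP cells, close to 14.62, the highest value in the table, and differed by 0.03. HK2, the hexokinase gene most tied to HIF, read 10.86 and 10.73 in GFP-RhoGDI2 cells, against 10.82 and 10.70 in GFP cells, and differed by 0.04 (95% interval from -0.19 to 0.27). The less bright HK2 probe sets differed by -0.47 and -0.35, also uncalled (adjusted p = 0.0706 and 0.130).

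HK1, GPI, ALDOA, ALDOC, TPI1 and PGAM1 differed by -0.07 to 0.20, with none called. Of the 16 enzymes, 7 had a mean over 12 and 0 of these 7 were called in the main fit. That count depended on the fit. With an intensity trend, PGK1, LDHA, PGAM1, ENO1 and TPI1 were called higher, while GAPDH and ALDOA were not called. In that setting 11.6% of all tested genes were called higher and 12.2% lower. Whether signal near the top of the scale was compressed was not tested. The enzymes also differed between preparations: 14 of 16 read higher in preparation A than in B in both lines, by a median of 0.10 in GFP-RhoGDI2 cells and 0.10 in GFP cells, against 35.3% of all tested genes with that pattern. For the enzymes this gap between preparations is of similar size to the median gap of 0.13 between lines. The block removes the part of it that both lines share. Within preparations, the median difference between lines was 0.13 in A and 0.17 in B. For 15 of the 16 enzymes its sign was the same in both, as it was for 8666 of all 12123 tested genes.

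**Figure D3:**
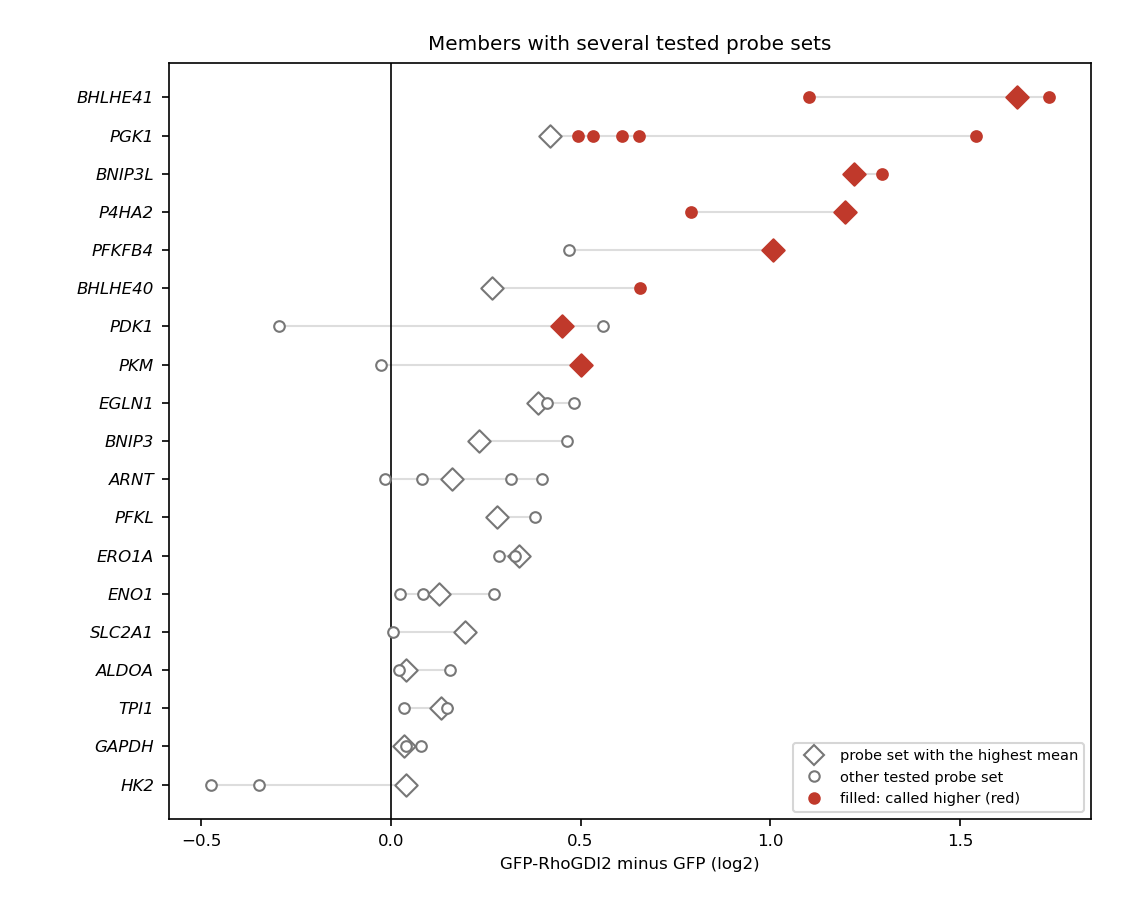
Difference between the lines, GFP-RhoGDI2 minus GFP (log2, horizontal axis), for every tested probe set of the 19 members with several; diamonds are the probe set with the highest mean, circles the others, and red filling marks a call. The PGK1 diamond at 0.42 is open while its 5 circles are filled, and PDK1, PKM and HK2 have probe sets on both sides of 0.

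Over all 74 tested probe sets of the members, 23 were called higher and 1 lower, where 4.63% and 3.01% of all tested probe sets were; the 23 include the BHLHE41 probe sets with GFP values under the filter level. Counting a member where any of its probe sets was called gave 15 higher and 1 lower, where 6.44% and 4.46% of all tested genes were so counted; PGK1 and BHLHE40 are the additions. A further 17 probe sets of members lay under the filter level.

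Related genes outside the 41 were read from 6 further lists. Of 20 other HIF targets tested, 9 were called higher and 0 lower, with a median difference of 0.43. Of the 22 tested members outside the glycolytic enzymes, 11 were called higher and 0 lower, with a median of 0.43. Over all tested genes, 4.83% were called higher and 3.35% lower. The members and these lists were chosen with earlier results of these data known, so they are not independent support for each other. TMEM45A, a transmembrane protein gene, read 9.82 and 9.63 in GFP-RhoGDI2 cells, against 8.01 and 8.03 in GFP cells, and rose by 1.71 (adjusted p = 0.00120). CA12, encoding a carbonic anhydrase of the cell surface, rose by 1.43, the nuclear receptor gene RORA by 1.40, INSIG2, a gene of sterol control, by 0.81 and VEGFA, the vascular growth factor gene, by 0.72. HILPDA, a lipid droplet gene, rose by 0.60 (adjusted p = 0.0231). ANGPTL4, PLOD2 and AK4 were not called, with 0.32, 0.33 and 0.37. Of the 20, 3 had negative differences, all uncalled: MAFF (-0.23), PPFIA4 (-0.14) and RBPJ (-0.07).

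CITED2, whose product competes with HIF for its coactivators and which is itself a HIF target, was the called gene among 9 other oxygen sensing genes tested. It read 8.70 and 8.72 in GFP-RhoGDI2 cells, against 8.11 and 8.09 in GFP cells, and rose 1.52-fold (adjusted p = 0.0214). HIF1AN, the gene of the asparagine hydroxylase that blocks HIF activity, differed by 0.04. Of 9 other glycolytic isozymes and kinases tested, PDK3 was called: it read 8.89 and 9.19 in GFP-RhoGDI2 cells, against 7.69 and 7.72 in GFP cells, and rose 2.52-fold (adjusted p = 0.00329). PDK3, like PDK1, inactivates pyruvate dehydrogenase. Both lists had 1 call in 9 genes, where 4.83% of all tested genes were called higher and 3.35% lower.

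The pathways next to glycolysis showed no calls, which in lists this short is near the share of all tested genes (4.83% higher, 3.35% lower). Of 19 genes of pyruvate entry and the citric acid cycle, 0 were called by limma (4 with an unadjusted p under 0.05), and their median was 0.03. Of 6 genes of the pentose phosphate pathway, 0 were called (1 with an unadjusted p under 0.05), with a median of 0.08. Over all 12123 tested genes, 3290 had an unadjusted limma p under 0.05. Among 12 genes of the ATF4 stress response, which also induces DDIT4, 1 was called: PSAT1, an enzyme of serine synthesis, rose by 0.61 (adjusted p = 0.0247). The median of that list was -0.03, with 4 positive and 8 negative differences, from -0.66 for SLC7A11 to 0.61 for PSAT1. ATF4 itself differed by 0.38 (adjusted p = 0.0747) and CHAC1 by 0.33, while TRIB3, DDIT3 and ASNS differed by -0.16, -0.03 and -0.06, none of them called. Whether ATF4 had a part in the DDIT4 difference was not tested.

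**Figure D4:**
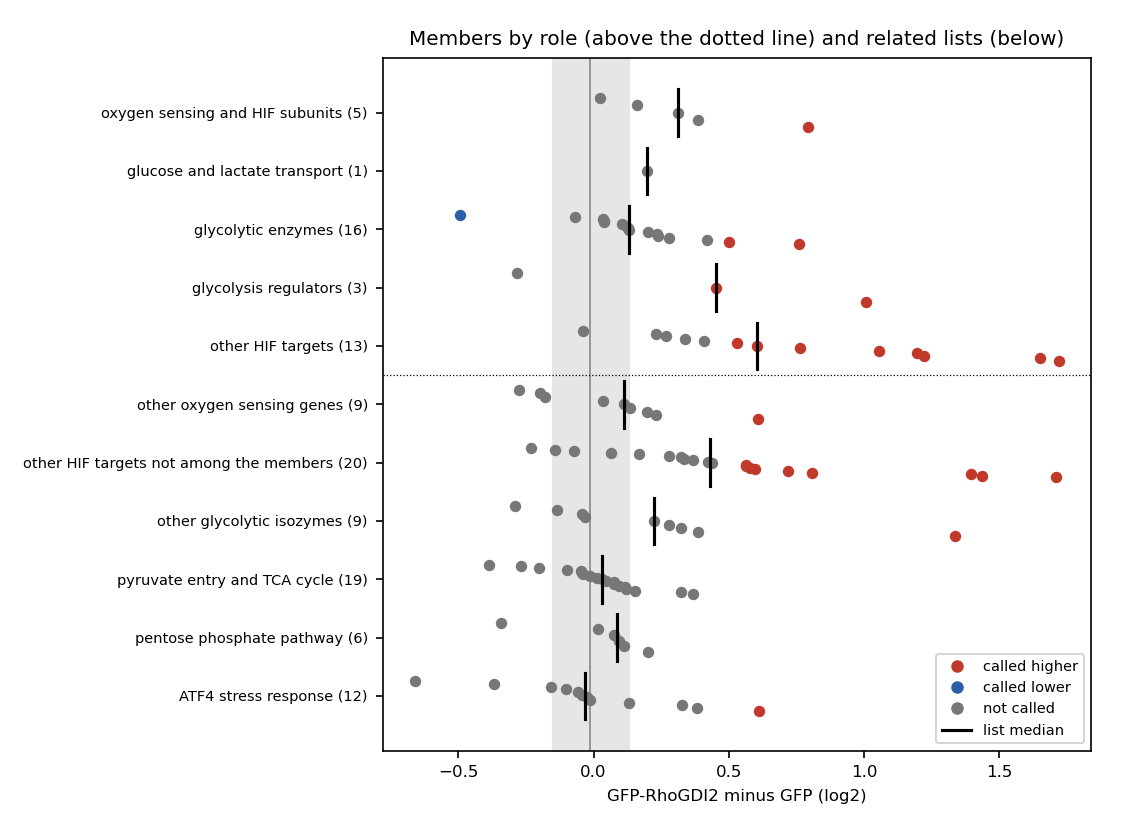
Differences of tested genes, GFP-RhoGDI2 minus GFP (log2, horizontal axis), by role group of the members (above the dotted line) and by related list (below); the number of tested genes is in brackets, black bars are list medians, and the grey band spans the middle 50% of all tested genes. The medians of the other HIF targets, inside (0.61) and outside (0.43) the 41 genes, lie to the right of the band, while those of the citric acid cycle (0.03), pentose phosphate (0.08) and ATF4 (-0.03) lists lie within it. Also to the right of the band are the medians of glycolysis regulators (0.45), oxygen sensing members (0.31), other glycolytic isozymes (0.22) and the transport group, which is SLC2A1 alone (0.20).

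Leaving out any 1 array, without the block, left 6 to 9 members called higher and 0 called lower, the fewest without GFP-RhoGDI2 B (6), then without GFP-RhoGDI2 A (7), GFP B (8) and GFP A (9). In these 4 fits, 1.25% to 2.49% of all tested genes were called higher and 0.495% to 1.09% lower. A line left with 1 array is assumed to vary like the other line, so these fits say little about that line's own spread. The 6 members called under every alternative that could be run for them were DDIT4, BHLHE41, BNIP3L, P4HA2, NDRG1 and PFKFB4, the same 6 that rose at least 2-fold. Of the other called members, EPAS1 was called in 10 of 11 alternatives, missing the threshold without GFP-RhoGDI2 B (adjusted p = 0.0642), MXI1 in 9, ENO2 in 8 and ANKRD37 in 7 of 11. P4HA1 and PFKM were called in 4 of 10, and PKM and PDK1 in 3 of 11. All of these kept their sign. The alternative without probe sets that can match several transcripts could not be run for DDIT4, BHLHE41, NDRG1, P4HA1 and PFKM. For BHLHE41, the alternative with probe set means takes in the probe sets whose GFP values lie under the filter level, so it adds no support.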

How the data were processed

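Expression was measured on 4 Affymetrix HG-U133 Plus 2.0 arrays, 2 of GFP-RhoGDI2 and 2 of GFP cells. The authors deposited RMA log2 expression for each probe set (RMA is named in the submitters' processing notes). Its software, its version and the set of arrays it was run on are not stated in the sources used here. Array medians were 4.62 to 4.65 and no further normalization was applied. The number of arrays, rather than a depth, limits the precision. Groups came from the titles, since the GFP-RhoGDI2 samples carry a description written for the control.

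Of 54675 probe sets, 62 controls were left out; the annotation gave 1 gene for 41091, several for 1801 and none for 11721. Symbols were updated through Entrez identifiers. Probe sets with a mean at or above the median (4.64) were tested across all genes with limma 3.58.1 in R 4.3.3 (lmFit, eBayes), with preparation as a block because the labels pair the preparations; A minus B differences of the lines correlated at 0.264 over probe sets. Adjustment was Benjamini-Hochberg over 27307 probe sets, and intervals are at 95%. The fit was tested on simulated data. The named genes are all members, the called genes of the 6 related lists, at most 6 a list, and a few uncalled genes chosen after their values were seen. The members, lists and alternatives were chosen with earlier results of these data known. Promoters are RefSeq's, GRCh38.p14.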

Additional observations from a re-analysis of the deposited data

How the results depend on the processing

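Shared-transcript probe sets are those whose identifiers end in _s_at or _x_at; counting any called probe set of a member was chosen after seeing the data. Without the replicate block, 10 members were called higher and 0 lower (3.30% and 1.99% of all genes). With each array left out and no block, 6 to 9 were called higher and 0 lower (1.25% to 2.49% and 0.495% to 1.09% of all genes), the median was 0.215 to 0.337, and 4 to 5 genes of the related lists were called higher. Members called higher and lower numbered 24 and 2 with an intensity trend, where 11.6% and 12.2% of all genes were called, 19 and 2 above the upper quartile (12.1% and 13.1% of all genes), 18 and 1 with each gene's probe sets averaged (8.83% and 7.93%), 10 and 0 with no filter (2.33% and 1.19%), and 10 and 0 without shared-transcript probe sets (5.02% and 3.41%), where 23 members were tested and the median was 0.328. Related genes called higher and lower numbered 24 and 11 with the trend, 20 and 6 above the upper quartile and 19 and 2 with probe set means, against 12 and 0. The cause of these changes was not tested.

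Every reversal was of an uncalled member. The fits with an array left out have no block, so part of the gap between preparations enters their differences. Within preparations A and B, the sign differed for HIF1A and ALDOC and was the same for HK2, GPI, ALDOA, GAPDH and ADM. With an array left out, HIF1A ranged from -0.0725 to 0.123, HK2 from -0.0282 to 0.107, GPI from -0.0654 to 0.277, ALDOA from -0.0619 to 0.141, ALDOC from -0.215 to 0.0818, GAPDH from -0.00482 to 0.0729 and ADM from -0.192 to 0.113. Renormalized, HIF1A was at -0.0196 and ALDOA at -0.00197; with probe set means HK2 was at -0.261. With 2 arrays a line and no detection calls, values near the filter level are not shown to be above background.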
